A study of Brassica napus with 355 samples.

Results

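The response of the Brassica napus accession Alaska (Al) to water limitation was followed in leaf RNA through a day, by setting every water-limited (WL) library against every well-watered (WW) library of this accession at each time point and on average over the time points. The members were the Al libraries as labelled, 22 of the 354 libraries with counts (355 were listed for 16 accessions). WW pots were held at 100% and WL pots at 20% of their water capacity. The youngest leaf was sampled at its apex at ZT1, ZT7, ZT13 and ZT19, where ZT counts the hours since lights came on, so that ZT19 fell in darkness and the other time points in light. There were 3 WW libraries at each time point (12 in all), 3 WL libraries at ZT1 and at ZT7, and 2 WL libraries at ZT13 and at ZT19 (10 in all). Each library is described as leaf tissue of separate plants of 1 accession. The descriptions of the growth conditions disagree with each other in temperature and day length, so neither is printed here. P-values measure the spread between these libraries of 1 growth experiment.

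B. napus is an allopolyploid that carries a BnA subgenome, inherited from a relative of B. rapa, and a BnC subgenome, inherited from a relative of B. oleracea. A plant short of water closes its stomata, which saves water but limits the entry of carbon dioxide, and the hormone abscisic acid carries much of this signal. Growth slows, and the use of sugars, starch and cell wall polysaccharides is altered. Many leaf genes also follow the circadian clock and the light, so that a response to drought can be seen at one time of day and missed at another. For this reason the comparison was made at each time point, as a mean over time points (level), and as a change of the WL minus WW difference between time points (pattern).

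Total counts were 8890034 to 35177558 per library, with a median of 19820708.5 under WW and 16988446 under WL. Counts were given for 106126 identifiers, of which 45540 belong to BnA, 59225 to BnC and 1361 to neither, and 54539 passed the filter on low counts. The identifiers could not be paired with gene names (0 matched the annotation used here), so each gene goes by its identifier, roles are given only for groups of genes, and the label leaf was not checked against marker genes. Fold changes are WL minus WW on the log2 scale ± the standard error, from edgeR's quasi-likelihood model, and a gene was called at a Benjamini-Hochberg adjusted p of 0.01 or less. Levels are CPM, counts scaled to the library total after TMM normalisation, and they compare libraries for 1 gene, not genes of different length.

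One Al library did not carry the expression profile of its accession. Over 3744 genes whose level differs strongly between accessions, 352 of 354 libraries were most like their own accession. The library labelled WL ZT19 replicate 3 of Al had a Pearson correlation of 0.36 with the Al profile and 0.96 with that of the accession DH12, whereas the library labelled WW ZT19 replicate 3 of DH12 had 0.35 with DH12 and 0.95 with Al. The other 21 Al libraries correlated with Al at 0.886 to 0.981 and with DH12 at 0.311 to 0.387. In the Al library at fault, 308 genes that exceeded 2 CPM in each of the other 21 Al libraries stood below 0.05 CPM, and 191 genes did the reverse, compared with at most 1 and 2 such genes in any other Al library. Both libraries were kept under their labels. Many results that rest on the first are given with and without it. Averaged and ZT19 values given only once include it unless said otherwise, and can depend on it. Without it 1 WL library is left at ZT19, whose spread is then taken from the other groups.

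**Figure D1:**
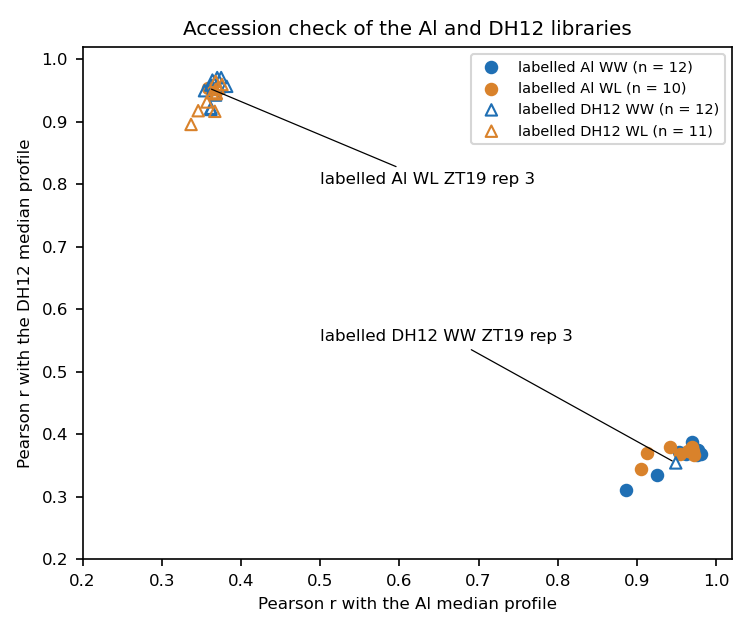
Similarity of each library labelled Al (filled circles) or DH12 (open triangles) to the median profile of Al (horizontal axis, Pearson r) and of DH12 (vertical axis, Pearson r) over 3744 genes, in blue for WW and orange for WL. The library labelled WL ZT19 replicate 3 of Al lies among the DH12 libraries, at 0.96 with DH12, and the library labelled WW ZT19 replicate 3 of DH12 lies among the Al libraries, at 0.95 with Al.

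On average over the day, no gene of Al passed the test for a difference between WL and WW. Of 54539 genes tested, 0 were called (0%), although 5500 had an unadjusted p of 0.05 or less, 2670 of them higher and 2830 lower under WL. The median log2 fold change over all genes was −0.01 and its interquartile range −0.22 to 0.17, at a median standard error of 0.24. DESeq2 on the same counts called 218 genes, 75 higher and 143 lower under WL. limma on the deposited log2 FPKM called 0. limma with a quality weight for each library called 4, and edgeR without the 6 libraries that deviated most from the rest called 16, all higher under WL. Those 6 (SD of their deviations from the gene medians above 1, log2) were WL ZT1 replicates 1 and 3, WL ZT7 replicate 3, WW ZT13 replicate 3, WW ZT19 replicate 1 and the library labelled WL ZT19 replicate 3, so that 1 WL library was left at ZT1 and at ZT19. Without the library labelled WL ZT19 replicate 3, edgeR called 0 of 56512 genes, with 5123 at an unadjusted p of 0.05 or less. With WL ZT19 replicate 2 left out instead, so that the library of DH12 profile alone stood for WL at ZT19, edgeR called 1088 level genes, and 1 gene without WW ZT13 replicate 3 or WW ZT19 replicate 1. The number of level genes in Al thus rested on the tool and on single libraries, and the genes described next are those of the smallest p, with values of each library.

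BraA09g14990R, a BnA gene, held less than 1 CPM in every WW library and was present in every WL library. At ZT1 it stood at 0.0606, 0 and 0.0520 CPM in the WW libraries and at 2.80, 4.69 and 0.915 CPM in the WL libraries. At ZT7 the WW libraries held 0.276, 0.0572 and 0.0733 CPM and the WL libraries 0.472, 0.716 and 0.736 CPM. At every time point each WL library lay above each WW library, and the gap was widest at ZT1. At ZT13 the levels were 0.256, 0.108 and 0.652 CPM under WW and 1.97 and 1.32 CPM under WL. At ZT19 they were 0.906, 0.0474 and 0.142 CPM under WW, against 2.53 CPM in WL replicate 2 and 3.44 CPM in the library labelled replicate 3. The averaged log2 fold change of BraA09g14990R was 3.36 ± 0.49 (edgeR, adjusted p 0.0553), and 3.30 without the library labelled replicate 3 (edgeR, adjusted p 0.0834). It passed the threshold with DESeq2 (adjusted p 1.24e-06) and with limma's quality weights (adjusted p 0.00383).

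Bo5g108670, a BnC gene, was higher in all 10 WL libraries than in all WW libraries of the same time point, by a smaller amount. At ZT1 its levels were 12.9, 14.0 and 16.0 CPM under WW and 35.1, 36.9 and 25.1 CPM under WL. At ZT7, where the groups came closest, they were 24.7, 23.8 and 19.3 CPM under WW and 25.7, 30.5 and 27.2 CPM under WL. ZT13 and ZT19 held intermediate differences. The ZT13 levels were 16.3, 14.1 and 10.4 CPM under WW and 21.6 and 25.6 CPM under WL. The ZT19 levels were 10.6, 10.4 and 12.2 CPM under WW, 16.1 CPM in WL replicate 2 and 18.1 CPM in the library labelled replicate 3. The averaged log2 fold change of Bo5g108670 was 0.73 ± 0.10 (edgeR, adjusted p 0.0553; without the library labelled replicate 3 it was 0.69, adjusted p 0.0834).

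Bo9g169740 and Bo4g025230, both BnC genes, had the smallest p among genes that were lower under WL. Bo9g169740 held 38.4, 32.9 and 30.4 CPM under WW at ZT1 and 6.30, 8.15 and 13.6 CPM under WL. Its WW peak at ZT13 (109, 78.5 and 175 CPM) met 22.9 and 27.9 CPM under WL. At ZT7 the groups stood close but apart, at 11.1, 23.4 and 24.0 CPM under WW and 10.2, 8.45 and 9.98 CPM under WL. At ZT19 WL was no longer lower: WW libraries held 57.5, 51.7 and 47.9 CPM and WL replicate 2 held 58.3 CPM, close to the highest of them. The library labelled replicate 3, with the DH12 profile, held 69.8 CPM. The averaged log2 fold change of Bo9g169740 was −1.21 ± 0.18 (edgeR, adjusted p 0.0553, and 0.0982 without the library labelled replicate 3), and the highest mean moved from ZT13 under WW to ZT19 under WL. A test of whether its difference changed between time points was not passed (edgeR, adjusted p 0.92).

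For Bo4g025230 the difference kept its sign at all 4 time points. The 12 WW libraries held 10.5 to 21.6 CPM and the 10 WL libraries 5.89 to 15.7 CPM, so that the ranges over the whole day overlapped while those of each time point did not. At ZT1 the levels of Bo4g025230 were 13.6, 14.3 and 10.5 CPM under WW and 7.14, 5.89 and 5.97 CPM under WL. The averaged log2 fold change was −0.64 ± 0.10 (edgeR, adjusted p 0.1), and −0.71 without the library labelled replicate 3 (edgeR, adjusted p 0.0837).

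**Figure D2:**
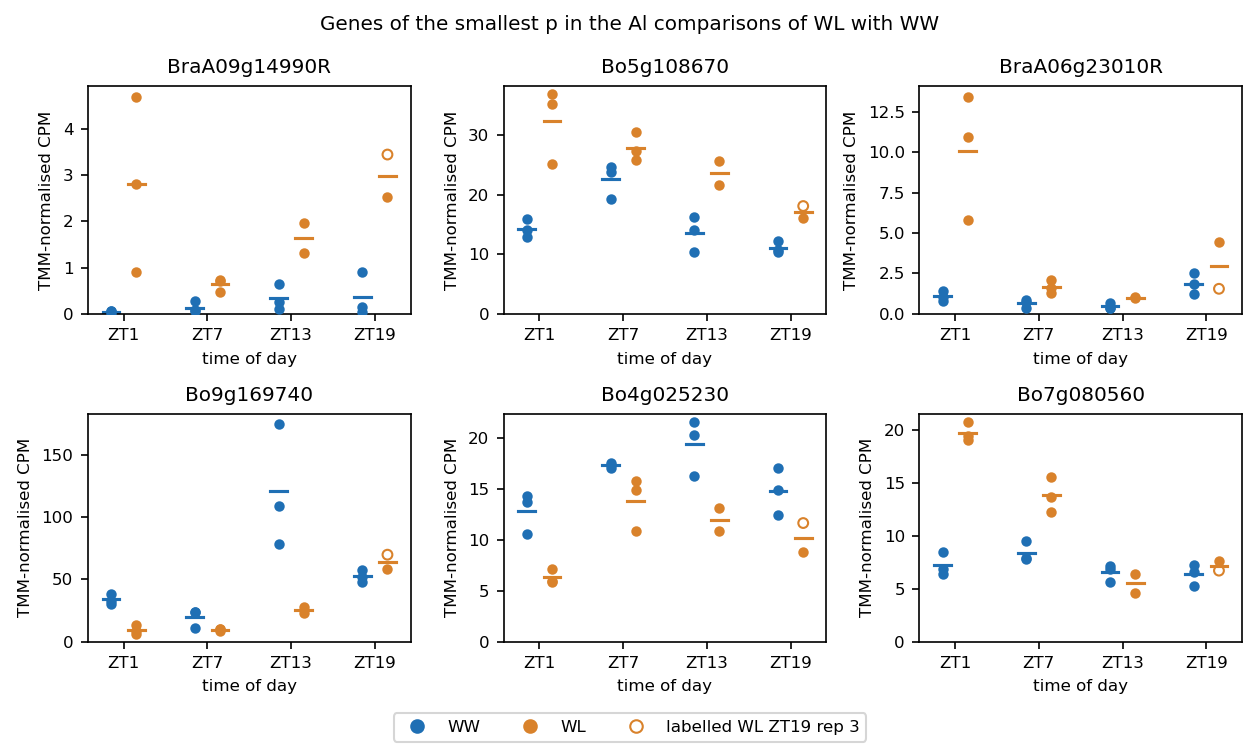
TMM-normalised CPM (vertical axes, linear) of 6 genes in each Al library at ZT1, ZT7, ZT13 and ZT19, with WW in blue, WL in orange, the library labelled WL ZT19 replicate 3 as an open circle and a bar at the group mean. In BraA09g14990R, Bo5g108670 and Bo4g025230 the groups are apart at every time point, Bo9g169740 is no longer lower under WL at ZT19, and Bo7g080560 and BraA06g23010R differ most at ZT1.

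Genes whose WL libraries all lay on 1 side of the WW libraries at each of the 4 time points were rare. There were 13 higher under WL (0.0238% of the genes tested) and 7 lower (0.0128%). Without the library labelled WL ZT19 replicate 3 there were 27 and 16, but leaving a library out can only keep or raise these counts. With all libraries, log2 fold changes ran from 0.29 to 3.36 among the 13 and from −0.24 to −1.53 among the 7. Besides BraA09g14990R, the largest differences among the higher genes were those of BraA08g07510R and BraA10g25840R, named after their values were seen. BraA08g07510R held at most 0.286 CPM in any WW library and 0.173 to 2.26 CPM in the WL libraries, with a log2 fold change of 2.60 ± 0.48 (edgeR, adjusted p 0.112). BraA10g25840R held at most 0.367 CPM under WW and 0.173 to 1.33 CPM under WL, with a log2 fold change of 2.40 ± 0.42 (edgeR, adjusted p 0.104).

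On the lower side, and also named after their values were seen, were Bo9g175750, Bo3g138370 and Bo2g165990. Bo9g175750 held 0.965 to 2.16 CPM under WW and 0.0700 to 1.04 CPM under WL (log2 fold change −1.53 ± 0.35; edgeR, adjusted p 0.195). Bo3g138370 held 2.03 to 15.4 CPM under WW and 0.840 to 3.18 CPM under WL (log2 fold change −1.15 ± 0.21; edgeR, adjusted p 0.104). Bo2g165990 held 31.9 to 172 CPM under WW and 16.4 to 53.0 CPM under WL (log2 fold change −1.01 ± 0.22; edgeR, adjusted p 0.176). Its highest value, 172 CPM, came from WW ZT13 replicate 3, 1 of the 6 libraries that deviated most, while the other 2 WW libraries of Bo2g165990 at that time point held 64.0 and 35.9 CPM.

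Further genes came forward when libraries were weighted or left out, and were named after that was seen. Bo9g017840 and Bo7g057870 were called, with BraA09g14990R, by DESeq2, by limma with quality weights and by edgeR without the 6 libraries. Bo9g017840 stood at 1.21, 0.605 and 0.885 CPM under WW at ZT1 and at 16.2, 22.1 and 17.0 CPM under WL, the widest gap of its 4 time points. At ZT13 the order within WW was broken by replicate 3, which held 12.8 CPM of Bo9g017840 against 1.2 and 1.46 CPM in the other WW libraries and 4.80 and 7.27 CPM under WL. Its log2 fold change was 1.95 ± 0.34 (edgeR, adjusted p 0.104; limma with quality weights, adjusted p 0.00154). Bo7g057870 held 3.91 to 11.9 CPM in the 12 WW libraries and 8.38 to 16.9 CPM in the 10 WL libraries, with a log2 fold change of 1.08 ± 0.17 (edgeR, adjusted p 0.1; limma with quality weights, adjusted p 0.00388).

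Without the library labelled WL ZT19 replicate 3, Bo2g140520 and BraA06g23010R had the smallest adjusted p of the level test. Bo2g140520 held 0.142 to 1.93 CPM in the 12 WW libraries and 1.16 to 5.29 CPM in the 9 other WL libraries, but 0 CPM in the library labelled replicate 3. At ZT19 itself, Bo2g140520 stood at 0.345, 0.142 and 0.283 CPM under WW and 4.26 CPM in WL replicate 2. Its log2 fold change was 2.17 ± 0.45 with all libraries (edgeR, adjusted p 0.167) and 2.40 ± 0.27 without that one (edgeR, adjusted p 0.0103). For BraA06g23010R it was 1.60 ± 0.24 (edgeR, adjusted p 0.0553) and 1.73 (edgeR, adjusted p 0.0257) without it.

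At single time points, 0 of 54539 genes (0%) passed the threshold with edgeR at any of the 4. Before adjustment, a p of 0.05 or less was reached by 3787 genes at ZT1, 1752 at ZT7, 4612 at ZT13 and 3585 at ZT19, and DESeq2 called 78, 10, 51 and 122. Without the library labelled replicate 3, edgeR still called 0 at ZT19, with 1613 at an unadjusted p of 0.05 or less. With that library alone for WL (replicate 2 left out) it called 2228. Without WW ZT13 replicate 3, 1 gene was called at ZT1. At ZT1 and ZT19 more of the genes at that p were higher under WL (2314 of 3787 and 2111 of 3585), whereas at ZT13 fewer were (1750 of 4612). The ZT19 split includes the library labelled replicate 3, with the DH12 profile. The 4 single time points had median standard errors of 0.44 to 0.50 on the log2 scale, against 0.24 for the average over them.

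ZT1, shortly after lights came on, held the genes closest to a call. Bo7g080560 stood at 6.36, 6.82 and 8.43 CPM under WW and at 19.1, 19.5 and 20.8 CPM under WL, with no overlap and little spread. Its log2 fold change at ZT1 was 1.46 ± 0.19 (edgeR, adjusted p 0.0363, and 0.0315 without the library labelled WL ZT19 replicate 3). Bo7g080560 was also higher in every WL library at ZT7 (12.3 to 15.6 CPM against 7.85 to 9.49 CPM), but at ZT13 and ZT19 the groups overlapped. BraA06g23010R held 1.39, 1.05 and 0.781 CPM under WW at ZT1 and 13.4, 10.9 and 5.78 CPM under WL, a log2 fold change of 3.22 ± 0.47 (edgeR, adjusted p 0.0856, and 0.0315 without that library). At ZT19 BraA06g23010R overlapped, at 2.50, 1.23 and 1.84 CPM under WW, 4.43 CPM in WL replicate 2 and 1.55 CPM in the library labelled replicate 3.

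Among genes lower at ZT1, Bo01909s010 and Bo5g020040 had the smallest p. Bo01909s010 held 57.3, 61.2 and 59.9 CPM under WW and 10.8, 21.4 and 28.0 CPM under WL, and Bo5g020040 held 34.2, 35.0 and 35.1 CPM under WW and 6.23, 12.4 and 16.6 CPM under WL. Their fold changes at ZT1 were alike, −1.56 ± 0.28 each (edgeR, adjusted p 0.207 and 0.209), and so were their changes at the other time points. Reads that map to several places were divided among them, so the counts of Bo01909s010 and Bo5g020040 may share reads, and they are not taken as separate genes. At ZT19 Bo01909s010 stood at 71.2, 91.5 and 91.4 CPM under WW and 113 and 91.6 CPM under WL, so the order of ZT1 was not kept.

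ZT7 held the fewest genes that reached 0.05 before adjustment. Bo3g002590 stood at 0, 0.0572 and 0.220 CPM under WW and 0.826, 2.79 and 0.946 CPM under WL, and Bo4g169230 at 4.64, 2.80 and 4.18 CPM under WW and 7.91, 10.9 and 11 CPM under WL. Bo7g045720 was lower, at 2.94, 0.686 and 1.36 CPM under WW and 0.236, 0.143 and 0.105 CPM under WL, with a log2 fold change of −3.40 ± 0.51 (edgeR, adjusted p 0.27). BraA07g25350R was lower by less, at 2.25, 2.06 and 2.42 CPM under WW and 1.18, 0.716 and 0.736 CPM under WL. The groups of all 4 genes were apart at ZT7, but the adjusted p was 1 for Bo3g002590, Bo4g169230 and BraA07g25350R (edgeR).

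At ZT13, Bo9g055730 held 0.512, 0.542 and 0.592 CPM under WW and 10.2 and 5.47 CPM under WL, a log2 fold change of 3.82 ± 0.72 (edgeR, adjusted p 0.559). At ZT7 the groups of Bo9g055730 overlapped, with 5.33, 1.83 and 1.25 CPM under WW and 1.89, 0.716 and 0.841 CPM under WL. Bo7g031490 held 10.8, 13.6 and 9.12 CPM under WW at ZT13 and 33.5 and 39.4 CPM under WL, and it lay apart at ZT1 and ZT19 too. BraA08g24260R was lower at ZT13, at 1.75, 1.08 and 4.21 CPM under WW and 0.462 and 0.240 CPM under WL (log2 fold change −2.74 ± 0.54; edgeR, adjusted p 0.559). The adjusted p of Bo9g169740, the other named gene that was lower at ZT13, was 0.559 as well (log2 fold change −2.25 ± 0.39).

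The ZT19 genes of the smallest p rested on few libraries. Bo7g046960 held 1.55, 1.90 and 2.62 CPM under WW, 5.98 CPM in WL replicate 2 and 88.8 CPM in the library labelled replicate 3. Bo1g150530 held 0.173, 0.285 and 0.425 CPM under WW, 0.575 CPM in WL replicate 2 and 63.7 CPM in the library labelled replicate 3. In both, the high value came from the library whose profile is that of DH12, and without it the adjusted p rose from 0.111 to 1 (edgeR). On the lower side, Bo9g181780 held 1.51, 2.18 and 1.34 CPM under WW and 0.173 and 0.172 CPM under WL at ZT19 (log2 fold change −3.24 ± 0.62; edgeR, adjusted p 0.111). For Bo9g181780, and for Bo8g076480 below, 1 of the 2 WL values at ZT19 came from the library labelled replicate 3, with the DH12 profile. That value is not taken as a repeat of WL replicate 2 of Al. Bo8g076480 held 0.647, 0.379 and 0.283 CPM under WW and no count in either WL library at ZT19, while at ZT13 its order was the opposite, with 0.0427, 0.217 and 0.0592 CPM under WW and 0.405 and 0.399 CPM under WL.

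A change of the WL minus WW difference between time points was called in 0 of 54539 genes (0%; edgeR). At an unadjusted p of 0.05 or less there were 2779 genes, and 1984 of 56512 without the library labelled WL ZT19 replicate 3, while DESeq2 called 11 and limma on log2 FPKM called 3. With WL ZT19 replicate 2 left out, edgeR called 1110. The genes of the smallest p were Bo7g080560, whose WL libraries all lay above the WW libraries at ZT1 and ZT7 but not at ZT13 or ZT19, and Bo8g076480, whose difference turned at ZT19. For both the adjusted p was 0.92 (edgeR).

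Gene groups were read from gene ontology terms that the study had tabulated as enriched in its own comparisons, so a group is not independent evidence of its direction. Of 212 rows of terms read, 11 were cut short, so a group may lack genes of its term. The groups of Al's own comparisons were the negative regulation of carbohydrate metabolism and part of the glyceraldehyde-3-phosphate group, and all others came from other accessions grown and sampled in the same study. Over 17 groups with 332 genes in all, 0 members were called at the level of the day or at any time point (edgeR; background 0%). Groups are therefore described by the number of members higher or lower under WL and by their median log2 fold change, beside the median of −0.01 over all genes.

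Groups of defense, cell death and senescence lay below that median. Of 102 genes of immune and defense response, 87 were lower under WL and 15 higher, with a median log2 fold change of −0.51, and 25 had an unadjusted p of 0.05 or less, all lower, where over all 54539 genes 2830 were lower and 2670 higher at that p. Of 45 cell death genes 38 were lower (median −0.36), of 17 systemic resistance genes 12 (median −0.53), and of 6 leaf senescence genes all 6 (median −0.47). The immune and defense median was −0.53 without the library labelled WL ZT19 replicate 3. These groups share genes, among them BraA08g20050R, which is in both the immune and the cell death group.

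The libraries did not divide cleanly by treatment in these groups. The median deviation of the immune and defense genes from their own median level ranged from −0.54 to 1.90 (log2) over the 12 WW libraries and from −1.75 to 0.45 over the 10 WL libraries. The highest library was WW ZT13 replicate 3 (1.90), the next were WW ZT19 replicates 2 and 1 (1.26 and 1.19), and the lowest were WL ZT1 replicates 3 and 1 (−1.75 and −1.08). The treatments overlapped at each of the 4 time points. WW ZT13 replicate 3, WW ZT19 replicate 1 and both of these WL libraries were among the 6 that deviated most over all genes, and the part of that deviation in the group medians was not tested.

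BraA06g16260R had the smallest p of the immune and defense group. At ZT13 it stood at 12.5, 19.8 and 109 CPM under WW and 6.53 and 6.15 CPM under WL. At ZT1 it stood at 18.4, 7.37 and 6.51 CPM under WW and 2.66, 5.17 and 1.64 CPM under WL. WL libraries were lower at both times, and overlapped with WW at ZT7, where WW held 9.92, 4.29 and 8.58 CPM and WL 6.14, 5.23 and 5.10 CPM. The log2 fold change of BraA06g16260R was −1.66 ± 0.38 (edgeR, adjusted p 0.207). BraA08g20050R changed by −0.50 ± 0.13 (edgeR, adjusted p 0.241), with all WL libraries below all WW libraries at ZT1 (5.81 to 7.03 CPM against 10.1 to 11.8 CPM).

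The second cell death gene, BraA01g30030R, had 7.82, 7.82 and 7.24 CPM under WW at ZT1 and 4.06, 4.43 and 4.86 CPM under WL, with a log2 fold change of −0.46 ± 0.14 (edgeR, adjusted p 0.269). Of the senescence genes, BraA07g20790R varied widely, from 10.4 to 200 CPM under WW and 4.43 to 124 CPM under WL, with a log2 fold change of −1.07 ± 0.47 (edgeR, adjusted p 0.452). BraA09g48620R lay below WW in all WL libraries at ZT1 (8.89 to 10.1 CPM against 11.4 to 13.5 CPM) and had a log2 fold change of −0.36 ± 0.16 (edgeR, adjusted p 0.456).

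The systemic resistance genes of the smallest p were highest in single WW libraries. BraA04g04660R held 288 CPM in WW ZT13 replicate 3 and 86.9 CPM in WW ZT7 replicate 3, and 3.89 to 32.8 CPM in the other 10 WW libraries, against 0.674 to 26.1 CPM under WL. BraA01g15560R reached 601 CPM in WW ZT19 replicate 2 and 1104 CPM in WW ZT13 replicate 3, against 18.6 to 158 CPM under WL. Their log2 fold changes were −1.72 ± 0.64 and −1.28 ± 0.47 (edgeR, adjusted p 0.368 for both).

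Among sugar and cell wall groups of 10 or more genes, disaccharide metabolism and transport and galacturonan metabolism had the lowest medians. Disaccharides such as sucrose and trehalose carry and signal carbon, and galacturonan is the backbone of cell wall pectin. Of 10 disaccharide genes 9 were lower under WL, 8 of them at an unadjusted p of 0.05 or less, with a median log2 fold change of −0.76 (−0.69 without the library labelled WL ZT19 replicate 3). All 18 galacturonan genes were lower, 4 at an unadjusted p of 0.05 or less, with a median of −0.40 (−0.38 without that library). Over all 54539 genes, 2830 were lower at that p.

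Among groups of 10 or more genes, the disaccharide group was the one in which libraries divided by treatment at 2 time points. Its median deviation at ZT1 was −0.11, −0.14 and −0.45 in the WW libraries and −1.98, −0.52 and −1.27 in the WL libraries. At ZT7 it was −0.24, 0.00 and 0.20 under WW and −0.52, −0.71 and −0.95 under WL. The groups did not overlap at these 2 times, but they did at ZT13, and at ZT19 WW replicate 3 (0.13) lay below the library labelled WL replicate 3 (0.30). WL ZT1 replicates 1 and 3 and WL ZT7 replicate 3 were among the 6 libraries that deviated most over all genes. The part of that deviation in these medians was not tested. BraA01g25740R had the smallest p of the group, with a log2 fold change of −1.1 ± 0.35 (edgeR, adjusted p 0.305), and its highest value was 107 CPM in WW ZT13 replicate 3. Bo2g136590 held 17.9, 23.1 and 18.6 CPM under WW at ZT1 and 8.4, 15.3 and 15.6 CPM under WL, with a log2 fold change of −0.37 ± 0.13 (edgeR, adjusted p 0.332).

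In the galacturonan group the difference varied with the time point. At ZT1 all 18 genes were lower under WL (median −0.76) and at ZT7 17 of 18 (median −0.55), but at ZT13 10 of 18 were higher (median 0.12). Here too the WL libraries at ZT1 and ZT7 included libraries of high deviation. At ZT19 10 of 18 were lower, with a median of −0.48 (−0.45 without the library labelled WL ZT19 replicate 3). BraA04g03200R held 44.6, 26.8 and 15.5 CPM under WW at ZT1 and 3.64, 8.25 and 2.74 CPM under WL. At ZT7 BraA04g03200R held 37.6, 29.1 and 41.1 CPM under WW and 22.7, 15.6 and 20.5 CPM under WL. Both times were without overlap, and the ZT13 value of WW replicate 3 was again apart, at 629 CPM. The log2 fold change of BraA04g03200R was −1.69 ± 0.45 (edgeR, adjusted p 0.241) and that of Bo4g108130 −1.19 ± 0.33 (edgeR, adjusted p 0.247).

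Groups of central sugar metabolism lay on the other side. Glucose and glucose 6-phosphate metabolism holds the entry points of glycolysis and the pentose phosphate pathway. Of its 26 genes, 23 were higher under WL (median 0.29), as were all 10 genes of glyceraldehyde-3-phosphate metabolism (median 0.22). Without the library labelled WL ZT19 replicate 3 the medians were 0.22 and 0.20. At ZT1, ZT7 and ZT13, 19, 25 and 22 glucose genes were higher, but at ZT19 12 were higher and 14 lower. The glyceraldehyde-3-phosphate genes were 5 higher and 5 lower at ZT19. Median deviations of the glucose genes overlapped, at −1.37 to 0.55 over the WW libraries and −1.28 to 0.69 over the WL libraries. In the averaged test, an unadjusted p of 0.05 or less was reached by 2 higher and 3 lower genes of the glucose group. It was reached by 0 of the glyceraldehyde-3-phosphate group, against 2670 higher and 2830 lower of all 54539 genes. The 2 glucose genes of the smallest p went against the group. Bo5g148380 stood at 104, 84.1 and 81.7 CPM under WW at ZT1 and 38.4, 46.7 and 27.9 CPM under WL, with a log2 fold change of −0.88 ± 0.20 (edgeR, adjusted p 0.194), and Bo3g057250 had −0.74 ± 0.25 (edgeR, adjusted p 0.326).

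At ZT1 the glyceraldehyde-3-phosphate group had median deviations of 0.01, 0.14 and 0.17 in the WW libraries and 0.49, 0.64 and 0.57 in the WL libraries, without overlap. Part of this group was drawn from Al's own comparisons, so its order at ZT1 is not independent of that choice. WL ZT1 replicates 1 and 3 were also libraries of high deviation. BraA06g19130R held 33.2, 36.8 and 41.1 CPM under WW at ZT1 and 58.8, 45.3 and 44.9 CPM under WL, and Bo3g134490 held 26.4, 27.7 and 30.2 CPM under WW and 41.4, 40.4 and 36.6 CPM under WL. Their averaged log2 fold changes were 0.31 ± 0.15 and 0.32 ± 0.16 (edgeR, adjusted p 0.506 and 0.515). The 2 genes of negative regulation of carbohydrate metabolism, Bo5g148760 and BraA05g39210R, were both higher at ZT1 and ZT13 and both lower at ZT7 and ZT19, with averaged log2 fold changes of 0.25 ± 0.17 and 0.10 ± 0.17 (edgeR, adjusted p 0.657 and 0.883). The study listed them from Al's own response, in a pattern higher under WL at the start and end of the day. Their order at ZT1 and ZT13 is therefore not independent of that choice. Both are also members of the glyceraldehyde-3-phosphate group.

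**Figure D3:**
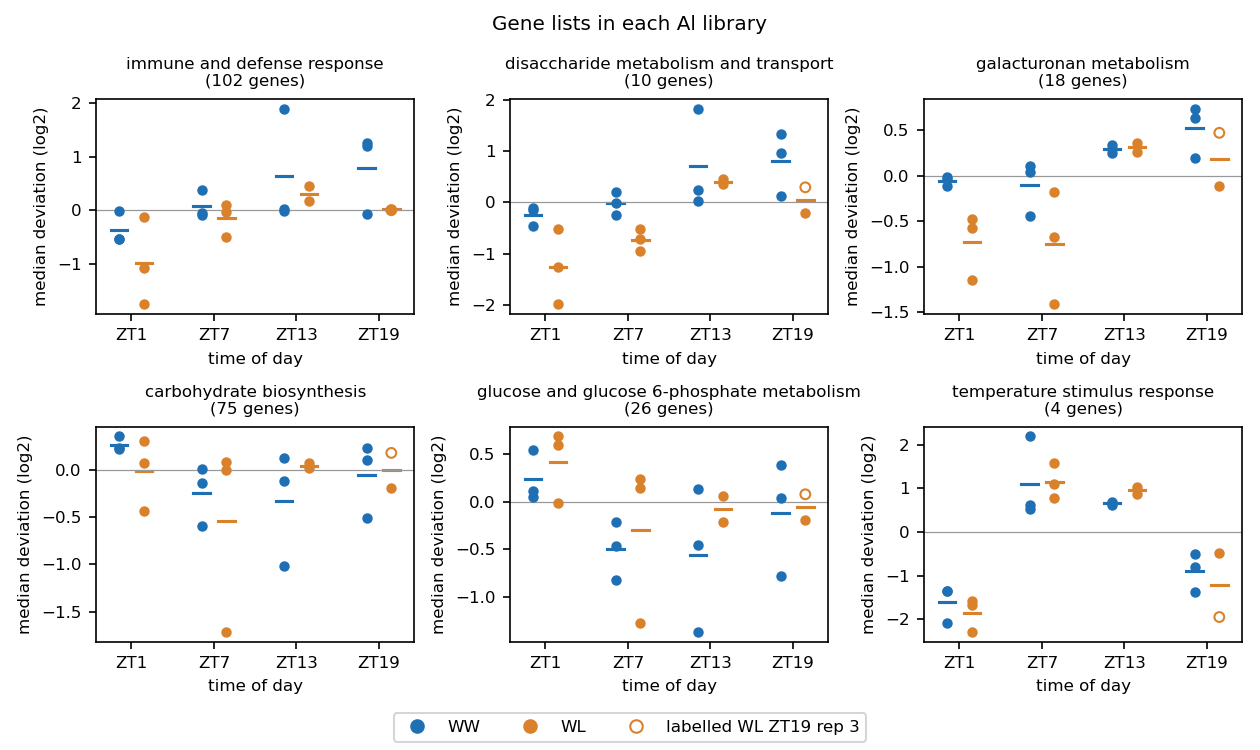
Median deviation (log2, vertical axes) of the genes of 6 groups from their own median level in each Al library, by time of day, with WW in blue, WL in orange, the library labelled WL ZT19 replicate 3 as an open circle and a bar at the mean of each group of libraries. The immune and defense libraries overlap between treatments, the disaccharide libraries are apart at ZT1 and ZT7, and the temperature group follows the time of day in both treatments.

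The remaining groups had medians from −0.29 to 0.16 with all libraries. The median of the temperature genes was −0.04, and 0.08 without the library labelled WL ZT19 replicate 3. The 9 genes of the regulation of the response to water deprivation were 5 higher and 4 lower, with a median log2 fold change of 0.16, and −0.01 without the library labelled WL ZT19 replicate 3. At ZT13 all 9 were lower (median −1.01), a time at which WW replicate 3 stood apart with a median deviation of 1.51. Bo9g010710 and Bo3g068870, the 2 of the smallest p, had log2 fold changes of −1.0 ± 0.50 and −0.61 ± 0.36 (edgeR, adjusted p 0.521 and 0.598). Of 38 autophagy genes, which serve the recycling of cell contents, 25 were higher (median 0.05), and Bo1g016430 and BraA09g10000R changed by 0.24 ± 0.11 and −0.20 ± 0.12 (edgeR, adjusted p 0.452 and 0.608).

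Carbohydrate biosynthesis held 33 higher and 42 lower genes (median −0.10), carbohydrate catabolism 18 higher and 10 lower (median 0.13), and beta-glucan metabolism 5 higher and 19 lower (median −0.19, and −0.27 without the library labelled WL ZT19 replicate 3). At ZT1 22 of the 24 beta-glucan genes were lower (median −0.52), and at ZT13 22 were higher (median 0.30). BraA02g12070R, of biosynthesis, was the closest to a call, at −0.53 ± 0.16 (edgeR, adjusted p 0.261), and Bo7g109260 had 0.92 ± 0.30 (edgeR, adjusted p 0.32). The catabolism genes BraA09g53420R and Bo5g004810 had 0.69 ± 0.33 and −0.79 ± 0.46, and the beta-glucan genes Bo4g148320 and BraA09g07450R had −0.44 ± 0.24 and −0.18 ± 0.14. Both amino sugar genes, Bo8g005830 and BraA08g33640R, were lower, by −0.38 ± 0.34 and −0.20 ± 0.28 (median −0.29, and −0.46 without that library), and the adjusted p of these 6 genes was 0.497 or more (edgeR). Of the 4 cold response genes, Bo7g114970 changed by 0.33 ± 0.10 and BraA05g15390R by −0.12 ± 0.18, and of the 4 temperature genes, Bo4g120250 changed by 0.30 ± 0.35 and BraA09g39680R by −0.21 ± 0.32 (edgeR, adjusted p 0.293 to 0.872).

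Far more genes were called by time of day than by water. Differences among the 4 time points were called in 773 genes under WW (1.42% of 54539; edgeR) and in 959 under WL (1.76%), and 559 genes were called in both, 72.3% of the WW and 58.3% of the WL calls. Without the library labelled WL ZT19 replicate 3 the calls were 767 under WW and 580 under WL, with 438 in both. The WL number also fell, to between 560 and 625, without WL ZT1 replicate 2 or 3 or WL ZT13 replicate 2 or 3, and it rose to 3243 without WL ZT19 replicate 2, while the WW number fell to between 437 and 513 without any 1 of the WW ZT1 libraries. The larger number under WL therefore depended on which libraries were kept. By subgenome, 363 of the WW calls were BnA genes and 410 BnC genes, and 443 and 516 of the WL calls.

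The hour of the highest level changed little between treatments. Of the genes called under WW or WL, 1048 also had deposited log2 FPKM, and for 841 of them (80.3%) the highest mean fell at the same time point in WW and WL. The peak was 6 h later under WL in 127 genes (12.1%), 6 h earlier in 55 (5.25%), and 12 h away in 17 and 8. Without the library labelled replicate 3, 710 of 848 genes (83.7%) kept their time point, 96 were later by 6 h and 32 earlier. Among the 524 genes called under both treatments with log2 FPKM, 454 (86.6%) peaked at the same time point, and the median range between the highest and lowest mean was 3.25 under WW and 3.35 under WL (log2). Time points 6 h apart show no smaller shift.

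Peaks fell mostly in the morning and at midday. Under WW, 276 called genes peaked at ZT1, 343 at ZT7, 81 at ZT13 and 20 at ZT19, and under WL 283, 333, 118 and 118. The WL count at ZT19 was 45 without the library labelled replicate 3, and that at ZT13 was 101.

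**Figure D4:**
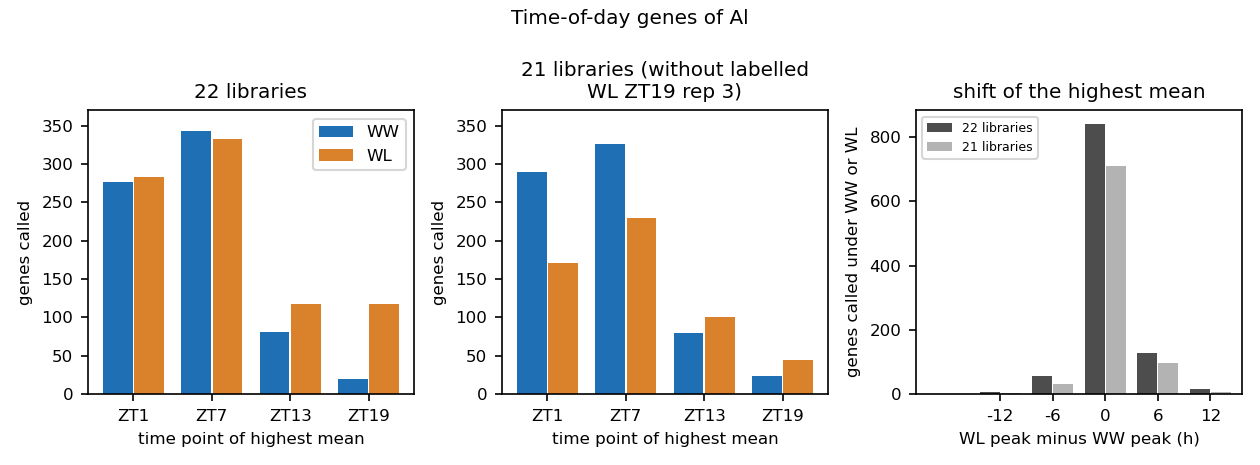
Number of time-of-day genes (vertical axes) by the time point of their highest mean log2 FPKM under WW (blue) and WL (orange), with all 22 libraries (left) and without the library labelled WL ZT19 replicate 3 (middle), and the WL minus WW difference of the peak in hours (right). The ZT19 bar of WL falls from 118 to 45 genes when that library is left out, and most genes, 841 with 22 libraries and 710 with 21, peak at the same time point in both treatments.

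The genes of the clearest daily change under both treatments were chosen for it and are a description. Bo9g010950 peaked at ZT7, with 399, 368 and 324 CPM under WW and 474, 568 and 295 CPM under WL, and stood lowest at ZT1, with 15.3, 14.1 and 13.4 CPM under WW and 5.95, 6.60 and 6.35 CPM under WL. Its peak values overlapped between treatments and its lowest values did not. Bo5g002760 peaked at ZT1, with 223, 268 and 222 CPM under WW and 236, 190 and 323 CPM under WL, and fell to 0.769, 0.650 and 0.770 CPM (WW) and 1.1 and 0.639 CPM (WL) at ZT13. BraA07g20200R peaked at ZT1 too, at 148, 174 and 122 CPM under WW and at 182, 203 and 238 CPM under WL. Bo5g106210 peaked at ZT13, with 122, 110 and 40.6 CPM under WW and 157 and 138 CPM under WL, against at most 0.140 CPM at ZT1. The averaged WL minus WW differences of these 4 genes were 0.01 to 0.17 (log2).

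Among the gene groups, calls by time of day were read against 1.42% of all genes under WW and 1.76% under WL. Of 4 temperature response genes 2 were called under WW and 2 under WL, above those shares, and the median deviation of the group ran from −2.09 to −1.35 at ZT1 and from 0.52 to 2.19 at ZT7 under WW, and from −2.29 to −1.58 and 0.78 to 1.58 under WL. Of 10 glyceraldehyde-3-phosphate genes 3 were called in each treatment, also above them. In the other 15 groups 0 to 2 members were called, and in some this was also above those shares, as for cell death with 1 of 45 in each treatment. The study drew the groups from time-of-day patterns of response in the same experiment. An excess of such calls is therefore not independent of that choice, and it rests on few genes.

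No difference between the subgenomes was found in the response. The share of all counts that fell on BnA genes was 42.1 to 43.5% over the 22 libraries, and its mean was higher under WL by 0.199 percentage points within time points (exact permutation test within time points, two-sided, p = 0.237), and by 0.0501 without the library labelled WL ZT19 replicate 3 (exact permutation test, p = 0.637). The median log2 fold change was −0.01 over 24966 BnA genes and −0.02 over 29512 BnC genes, and 10.3% and 9.89% of them had an unadjusted p of 0.05 or less in the level test.

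Against the other 15 accessions, the averaged response of Al differed in 63 of 54539 genes (0.116%; edgeR on all 354 libraries), 58 with a higher and 5 with a lower value in Al. Without the libraries labelled WL ZT19 replicate 3 of Al and WW ZT19 replicate 3 of DH12, 0 genes were called (0%), with 2074 at an unadjusted p of 0.05 or less against 3515 with them. The 2 libraries were left out together, and neither was left out alone. With the size factors of DESeq2 in place of TMM, 60 genes were called, 59 of them among the 63, and against Mu, Ne, Qu and Se alone, 48 genes, 41 of them among the 63. In BraA06g04710R, Bo2g127160 and BraA04g31940R, the 3 of the smallest p with a higher value in Al, the library labelled WL ZT19 replicate 3 held 37.9, 90.9 and 35.2 CPM, and the other 21 Al libraries at most 1.2, 1.28 and 4.19 CPM.

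The next 4 genes were chosen, with results known, as the most widely called in the series, so that large values in the other accessions follow from the choice and their place beside Al is a description. None of the 4 differences between Al and the mean of the others was called. BraA02g38550R, higher under WL in the other accessions by 1.63 to 5.21 (log2, mean 3.50), was higher in Al by 1.71, and 14 of the 15 lay above Al. In Al it stood at 2.30, 3.08 and 6.40 CPM under WW at ZT1 and 6.02, 15.1 and 11.7 CPM under WL. At ZT19 the WW libraries held 0.345, 1.38 and 1.63 CPM of BraA02g38550R and WL replicate 2 held 11.4 CPM, but the library labelled replicate 3 held 0. The difference between Al and the other accessions was −1.79 ± 0.55 (edgeR, adjusted p 0.21, and 1 without the 2 libraries). BraA05g09610R was higher by 2.52 in Al and by a mean of 3.61 elsewhere, a difference of −1.1 ± 0.89 (edgeR, adjusted p 1).

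On the lower side, with all libraries, the averaged difference of BraA07g23820R and Bo7g030980 was closer to 0 in Al than in any of the other 15 accessions. These Al averages include the library labelled WL ZT19 replicate 3, with the DH12 profile, and the order of the accessions is given only with it. BraA07g23820R stood at 5.21, 4.73 and 5.15 CPM under WW at ZT1 and 0.140, 1.16 and 1.06 CPM under WL, and its averaged log2 fold change was −1.38 against −4.92 to −1.44 elsewhere. Bo7g030980 had −1.83 against −4.63 to −2.21 elsewhere. The differences from the mean of the other accessions were 1.67 ± 0.63 and 1.91 ± 0.73, and neither was called (edgeR, adjusted p 0.466 and 0.494).

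In all gene groups but autophagy, the median response of Al lay inside the range of the other 15 accessions, which is given without a test. The immune and defense median of −0.51 in Al compared with −1.21 to 0.19 elsewhere, and 7 of the 15 lay below Al. The galacturonan median of −0.40 compared with −0.63 to −0.14, and that of disaccharides of −0.76 with −1.48 to 0.07. In the glyceraldehyde-3-phosphate group, higher under WL in all accessions by its median, Al at 0.22 stood near the low end of 0.14 to 0.56, above 1 other accession. The autophagy median of 0.05 was above the range of −0.17 to 0.02 elsewhere, and at 0.03 it was still above all 15 (−0.17 to 0.03) without the 2 libraries.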

How the data were processed

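RNA-seq libraries were deposited by the authors as 2 tables for Al. The authors trimmed reads with Trimmomatic 0.33, mapped them with HISAT2 2.1.0 to a joined reference of 2 diploid relatives (R500 for BnA, TO1000 for BnC) and assigned them to genes by strand in featureCounts, where a read with several places counts as a fraction at each. These deposited estimated counts were rounded. The authors' log2 FPKM table was normalised with edgeR and holds 43045 genes. Here edgeR 4.0.16 fitted 8 group means (TMM, filterByExpr, quasi-likelihood F-tests, no replicate term), with p-values adjusted over all genes tested. Limits were 0.01 for calls and 1 (SD, log2) for libraries of high deviation. In the fit over all 16 accessions the dispersion trend came from 1000 genes drawn with a fixed seed. Phase groups used mean log2 FPKM. limma 3.58.1 and DESeq2 1.42.0 (without independent filtering) were alternatives, and the averaged test and the test against other accessions were checked on simulated counts. The simulated counts had no change over the day and no deviating library, so they do not cover the dependence on single libraries. Libraries were grouped by their labels. Named genes were those with the smallest p in each direction of each comparison, up to 2 where none was called, 3 in each direction against other accessions and 2 in each gene group, and others are said to be named later. Members and gene groups were chosen with earlier results of these data known. Per-library depth limits low genes, and p-values cover the spread between plants of 1 experiment.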

Additional observations from a re-analysis of the deposited data

Results flagged for a closer look

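Of the 63 genes whose WL response in Al differed from the mean response of the other 15 accessions by a test of the difference itself (edgeR on 354 libraries, adjusted p of 0.01 or less), the 3 of the smallest p in each direction are given. BraA06g04710R was higher in Al by 1.44 ± 0.20 (log2; adjusted p 7.77e-07), but by 0.40 without the libraries labelled WL ZT19 replicate 3 of Al and WW ZT19 replicate 3 of DH12 (adjusted p 1). Bo2g127160 was higher by 2.09 ± 0.30 (adjusted p 1.53e-06), and by 0.49 without them (adjusted p 1). BraA04g31940R was higher by 1.1 ± 0.17 (adjusted p 3.77e-06), and by 0.37 without them (adjusted p 1). Each of these 3 was far higher in the library labelled WL ZT19 replicate 3 than in the other 21 Al libraries.

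The other 3 genes were lower in Al than in all 15 other accessions. Bo4g154720 differed by −2.31 ± 0.45 (adjusted p 0.00106), and by −2.17 without the 2 libraries (adjusted p 0.217). Bo1g108620 differed by −3.52 ± 0.70 (adjusted p 0.00185), and by −3.33 without them (adjusted p 0.255). BraA08g31380R differed by −0.82 ± 0.17 (adjusted p 0.00267), and by −0.71 without them (adjusted p 0.294). In all 3, WW ZT7 replicate 1 was the highest of the WW libraries of Al: Bo4g154720 stood there at 33.3 CPM and in the other WW libraries at 1.61 to 11.1 CPM, Bo1g108620 at 11.7 CPM against 0.232 to 1.64 CPM, and BraA08g31380R at 22.9 CPM against 7.61 to 16.7 CPM.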

How the results depend on the processing

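With RLE size factors, no low-count filter and the replicate number as a block, edgeR called 0 genes in the level, pattern and single time point comparisons, and RLE size factors and no filter kept the time-of-day counts within 1.5 times. An adjusted p of 0.05 gave 0 level genes, 1 gene at ZT1, 1771 WW and 2463 WL time-of-day genes and 122 genes against the other accessions. DESeq2 called 218 level, 11 pattern, 78 ZT1, 10 ZT7, 51 ZT13, 122 ZT19, 2959 WW and 4077 WL time-of-day genes. limma on the deposited log2 FPKM called 3 pattern, 2 ZT1 and 6 ZT19 genes. Settings chosen after seeing the data were the removal of the 6 libraries of high deviation (16 level, 1263 WW and 452 WL time-of-day genes), limma with quality weights (4 level, 87 ZT1, 5070 WW and 1821 WL time-of-day genes) and the removal of the 2 libraries that match each other's accession (0 genes against the other accessions). On log2(CPM + 1) values, 30 genes were in the phase group of +12 h. The cause of these differences was not tested.

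The replicate block gave 587 WW and 621 WL time-of-day genes. Libraries with the same replicate number in WW and WL correlated at −0.35 to 0.28 in their deviations from the group means, so the numbers were not taken to pair them.

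Leaving out each of the 22 libraries in turn gave 0 to 1088 level genes, 0 to 1110 pattern genes, 0 to 1 gene at ZT1, 0 at ZT7 and ZT13, 0 to 2228 at ZT19, and 437 to 886 WW and 560 to 3243 WL time-of-day genes. The phase groups held 595 to 1518 genes at 0 h, 86 to 463 at 6 h later, 26 to 541 at 6 h earlier, 6 to 138 at 12 h later and 1 to 195 at 12 h earlier. The highest of these, except for 1 gene at ZT1 and 886 WW genes, came without WL ZT19 replicate 2, when the library labelled replicate 3, with the DH12 profile, was the whole of WL at ZT19. Against the other accessions, the block and the removal of single Al libraries were not run.

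A few named genes changed sign in the level comparison (log2). Bo3g068870 was 0.040 and BraA09g39680R 0.090 without the 6 libraries, and BraA09g39680R was 0.14 with quality weights. Leaving out single libraries gave −0.64 to 0.011 for BraA09g39680R, −0.34 to 0.015 for BraA05g15390R and −0.74 to 1.96 for BraA02g38550R. Depth limits genes under about 1 CPM, such as BraA09g14990R under WW, where single reads set the value.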
